A study of Mus musculus with 47 samples.

Results

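The change that thymic DN3 cells undergo when they are taken out of the thymus and grown on OP9-DL4 stroma was measured in 4 of the 47 libraries of mouse T-cell precursors. The 4 libraries were chosen by their labels, with earlier results of these data known. They held thymic DN3 cells that carried the CreERT2 transgene and still had Bcl11b, and they formed 2 cultured and 2 uncultured libraries. The cultured cells came from mice with CreERT2, a Cre recombinase that tamoxifen switches on, and the labels name no floxed gene in them. They were sorted from the thymus, exposed to 100 nM 4-OH tamoxifen, grown on OP9-DL4 cells with cytokines and sorted again, after 3 days in 1 library (the day 3 culture) and after 4 days in the other (the day 4 culture). The uncultured cells were sorted thymocytes in which nothing had been deleted. One of these libraries carried CreERT2 and a floxed Bcl11b gene (the floxed library) and the other CreERT2 without a floxed gene (the unfloxed library). Per the labels' protocols the CreERT2 of the floxed stock was expressed in all cells from the ROSA26 locus, and the sorted stage was DN3a. The tamoxifen-treated Bcl11b knockout library was left out. A further uncultured thymic DN3 library (the LckCre library) belonged to neither group and was only compared. Its cells expressed LckCre in the animal, and its title names B6. The title dates lie in another month than those of the 2 uncultured libraries. Cre driver and date thus differed together from these 2. No label gives the ages or numbers of the mice, and nothing says that the libraries came from separate mice, so p-values measure only the spread between these libraries.

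DN3 thymocytes are double-negative precursors, lacking CD4 and CD8, that have committed to the T lineage and rearrange their T-cell receptor beta genes. Cells that make a working beta chain pair it with the pre-T-alpha chain (Ptcra), signal through this pre-TCR, divide and move on to the CD4+ CD8+ double-positive stage. Notch receptors on the precursors bind Delta-like ligands on stromal cells, are cut by gamma-secretase, and release an intracellular part that joins RBPJ and Mastermind on DNA to switch on genes such as Hes1, Dtx1 and Ptcra. OP9-DL4 is a bone-marrow stromal cell line made to display Delta-like 4, the main Notch ligand of the thymus. Tamoxifen, active Cre, stroma, cytokines, time outside the thymus and the repeated sort came together in both cultures, and their parts cannot be told apart.

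Expression was read as FPKM, the fragments of a gene divided by its length and by the size of the library, from a table that its name describes as adjusted for batches with ComBat, and all values below are FPKM unless another scale is named. Column totals ran from 581205 to 892858 FPKM, between 12240 and 13094 genes reached 1 FPKM, and from 1.94% to 3.59% of the 17754 genes stood at the lowest value of the table, 0.1 FPKM, in these 4 libraries. Sequencing depth is unknown. Across genes, log2(FPKM + 1) correlated at 0.968 (Pearson) between the cultures and at 0.968 between the uncultured libraries. The day 3 and day 4 cultures correlated with the unfloxed library at 0.9655 and 0.9675, and they correlated with the floxed library at 0.931 and 0.951. Genes are not independent replicates, and these values are a description. The title dates put the day 4 culture and both uncultured libraries in the same month and the day 3 culture in another year.

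The labelled stage was compared with its defining genes. Bcl11b, the zinc-finger factor of T-lineage commitment, stood at 61.2 in the day 3 culture, 79.3 in the day 4 culture, 133 in the floxed library and 100.0 in the unfloxed library. The cultures were lower without overlap, but the difference in mean log2(FPKM + 1) of -0.72 (SE 0.34) did not pass the test (limma, adjusted p = 0.447). Il2ra, which encodes CD25, Ptcra, Rag1 and Cd3e, genes that a DN3 cell expresses, were at 30.2 or more in every library. Kit, which earlier precursors express strongly, ran from 7.79 to 24.9, and Cd44 from 1.62 to 4.54. Cd4 was listed at 0.1 in 3 libraries and at 14.0 in the day 3 culture. Cd8a and Cd8b1, for CD8 chains that DN3 cells lack, departed from the labelled stage in both cultures. Cd8a was at 9.38 and 5.24 and Cd8b1 at 37.7 and 26.6 in the day 3 and day 4 cultures, against 0.1 in both uncultured libraries. The LckCre library, which was never cultured, had Cd8a at 20.3 and Cd8b1 at 33.2. Rag1, a subunit of the recombinase, was at 43.1 and 81.8 in the day 3 and day 4 cultures and at 78.8 and 67.3 in the floxed and unfloxed libraries, so that the groups overlapped. Dntt, the terminal transferase that adds bases at receptor joints, was at 601 and 763 in the cultures and at 890.2 and 884 in the uncultured libraries, with no call (limma, adjusted p = 0.739).

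Among 12911 genes tested with limma on log2(FPKM + 1), 71 genes (0.55%) were called at an adjusted p under 0.05. Of these, 55 (0.426%) were higher in culture and 16 (0.124%) were lower, and all 71 differed at least 2-fold on this scale. An unadjusted p under 0.05 was reached by 1519 genes (11.8%), 498 of them higher and 1021 lower. The median difference over the genes tested was -0.23 on the log2 scale, and each difference below is to be read against that shift. Quantile normalization moved it to -0.05 and raised the share of called genes that were higher from 77.5% to 96.8%, while scaling to equal column totals moved it to -0.46 and the share to 53%. Of the 71 genes, 31 were still called after quantile normalization and 42 with the spread taken from all groups of the series. With the LckCre library added to the uncultured group 11 of them were still called, and with no filter on low values 1, Gzma. Over all 17754 genes, both cultures were above both uncultured libraries for 2214 (12.5%) and below both for 5477 (30.8%). These shares are the background for the counts of genes without overlap given below. After quantile normalization the shares were 17.7% above and 23.1% below, which are the background for counts after that normalization. The number of calls rested on single libraries: 19 genes were called without the day 3 culture, 33 without the day 4 culture, 317 without the floxed library and 937 without the unfloxed library, where 1 residual degree of freedom is left and the lone library is assumed to vary like the other group.

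**Figure D1:**
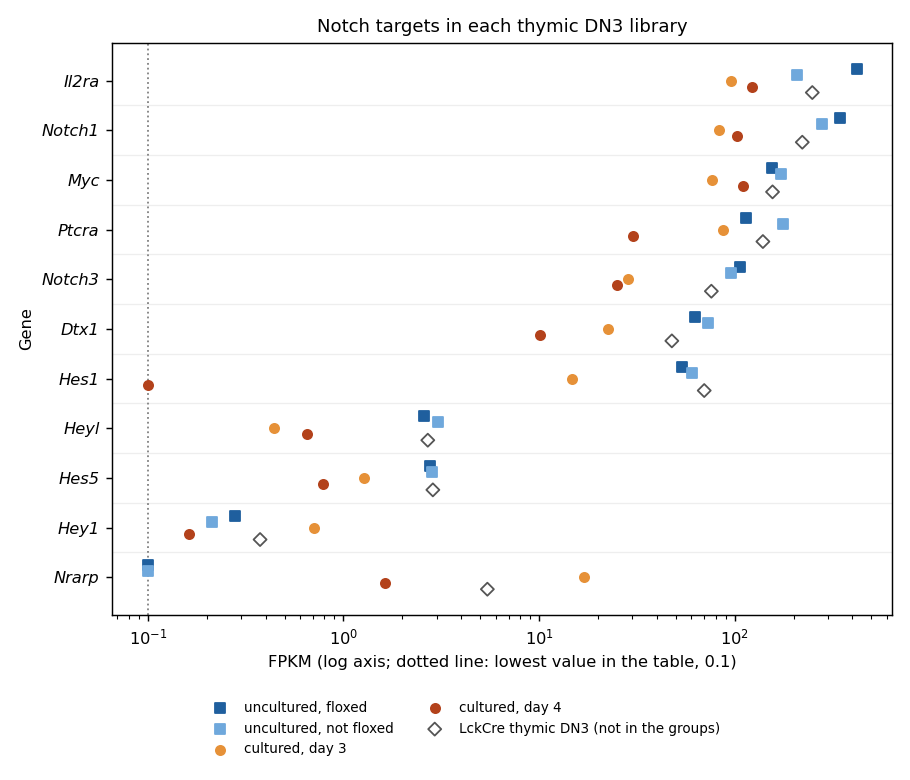
Level (FPKM, log axis) of the 11 Notch targets in each thymic DN3 library: squares are uncultured, circles cultured and open diamonds a further uncultured thymic DN3 library with LckCre. Both cultures lie left of both uncultured libraries for 9 genes, Nrarp shows the opposite order, and the dotted line is the lowest value in the table.

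Known targets of Notch were lower in culture on DL4. Of the 11 on the list, 9 were below both uncultured libraries in both cultures, against 30.8% of all genes, and 1, Nrarp, was above them. The median difference of the 11 was -1.45 on the log2 scale, against -0.14 over all genes in the table, and it was -1.47 after quantile normalization. Only Notch3 passed the test among these 11 in the fit of the 4 libraries. With the spread of all groups, where 2.21% of the genes tested were called lower and 0.976% higher, 3 were called lower (limma, adjusted p = 0.000831 for Hes1, 0.03 for Il2ra and 0.0465 for Notch3) and Nrarp was called higher (0.0283). The calls of Hes1 and Nrarp include values at the floor of 0.1, for Hes1 in the day 4 culture and for Nrarp in both uncultured libraries. Without the day 4 culture the Hes1 difference was -1.89 on the log2 scale. In bulk RNA, fewer cells of a type and less RNA per cell cannot be told apart.

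Notch3, a receptor gene that Notch signalling itself switches on in thymocytes, was at 28.4 and 25.1 in the day 3 and day 4 cultures and at 106 and 95.6 in the floxed and unfloxed libraries. It fell by 1.88 on the log2 scale (SE 0.31, limma, adjusted p = 0.0337), with both cultures about equally low. The Notch3 call held in 7 of 12 alternatives, and the direction was the same in all. It was lost with no filter (adjusted p = 0.233), after quantile normalization (0.0901) and with the LckCre library added (0.0553), all from limma. With either culture left out it was lost as well. Notch1, the receptor that carries the signal in early T cells, was at 83.3 and 103 in the cultures and at 344 and 278 in the uncultured libraries. Its difference of -1.73 (log2, SE 0.36) missed the threshold (limma, adjusted p = 0.0728). Dtx1, the Deltex ubiquitin ligase, was at 22.4 and 10.1 in the cultures and at 62.4 and 72.7 in the uncultured libraries, and its difference of -2.08 (log2, SE 0.39) lay at the threshold without passing it (limma, adjusted p = 0.0502). Both cultures were thus below both uncultured libraries for all 3 genes.

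Hes1, a repressor of the bHLH family and a direct Notch target, was at 14.7 in the day 3 culture and listed at 0.1 in the day 4 culture, against 53.7 and 60.8 in the uncultured libraries (limma, adjusted p = 0.111). The cultures stood far apart, and no fold is given because of the value at the floor. Hes1 stood at that floor in 1 of the 47 libraries, the day 4 culture. Ptcra was at 87.3 and 30.2 in the cultures and at 114 and 177 in the uncultured libraries (log2 difference -1.45, SE 0.48, limma, adjusted p = 0.263), again with the day 4 culture lowest. Il2ra was at 95.8 and 123 in the cultures and at 422 and 209 in the uncultured libraries, where the floxed library stood well above the unfloxed one (limma, adjusted p = 0.197). Myc, a growth regulator that Notch induces in T-cell precursors, was at 76.4 and 110.2 in the cultures and at 154 and 172 in the uncultured libraries. Heyl and Hes5, further bHLH targets, were low throughout, at 0.44 and 0.65 against 2.59 and 3.04 for Heyl and at 1.27 and 0.79 against 2.78 and 2.84 for Hes5. None of these genes was called.

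Nrarp, which encodes a feedback inhibitor of the Notch complex, went the other way. It was at 16.98 in the day 3 culture and 1.63 in the day 4 culture and listed at 0.1 in both uncultured libraries (limma, adjusted p = 0.131, not called). Nrarp stood at that floor in 2 of the 47 libraries, these uncultured ones, and its order rests on them. In the 13 cultured fetal liver libraries with Bcl11b (knockout controls and untreated DN2b cells) it ran from 3.56 to 34.9, with a median of 13.7. The LckCre library, which was not part of either group, had Nrarp at 5.44, between the cultures. For the other genes of the list that LckCre library lay with the uncultured side: it was nearer to the uncultured than to the cultured mean for 9 of the 10 targets without overlap, with Hes1 at 69.9, Notch3 at 76.0 and Ptcra at 139.

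The rest of the Notch pathway was closer to the background. Of 25 receptor, ligand, protease, glycosyltransferase and co-factor genes, 10 were lower without overlap and 1 was higher, and the median difference was -0.21 on the log2 scale. Notch3 was the only call. Rbpj, the DNA-binding partner, was at 10.1 and 12.9 in the cultures and at 19.9 and 13.1 in the uncultured libraries. Lfng, whose product modifies Notch so that it binds Delta better, was at 12.5 and 25.8 against 14.3 and 16.4, with overlap. Dll4 itself was at 0.28 and 1.10 in the cultures and at 0.30 and 0.28 in the uncultured libraries.

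Because the Notch targets were low together, their promoters were searched for TGGGAA, a core of the RBPJ binding motif, on both strands. RefSeq promoter windows of build GRCm38.p6, from 250 bases before to 50 bases after each start, were found for 7 of the 11 genes, and 2 of the 7 held the motif. Over all 32851 windows 25.6% held it. The windows of Ptcra (chr17:46763663-46763962, minus strand) and Hes5 (chr4:154960673-154960972, plus strand) are shown, 5′ to 3′ on the gene's strand, with each TGGGAA or its complement TTCCCA in capitals. Each window held 2 matches.
Ptcra: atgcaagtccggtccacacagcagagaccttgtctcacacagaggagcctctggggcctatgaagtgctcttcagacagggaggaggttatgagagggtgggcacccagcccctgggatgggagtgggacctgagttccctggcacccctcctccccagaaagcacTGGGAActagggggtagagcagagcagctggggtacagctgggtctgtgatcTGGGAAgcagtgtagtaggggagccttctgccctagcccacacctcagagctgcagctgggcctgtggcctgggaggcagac
Hes5: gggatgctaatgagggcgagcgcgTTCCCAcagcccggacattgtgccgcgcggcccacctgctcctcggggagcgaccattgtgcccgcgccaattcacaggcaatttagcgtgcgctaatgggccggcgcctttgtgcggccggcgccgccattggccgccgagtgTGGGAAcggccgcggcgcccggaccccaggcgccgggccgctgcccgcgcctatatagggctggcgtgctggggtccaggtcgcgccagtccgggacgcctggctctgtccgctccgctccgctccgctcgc
A match is a description of these letters and not a binding site.

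**Figure D2:**
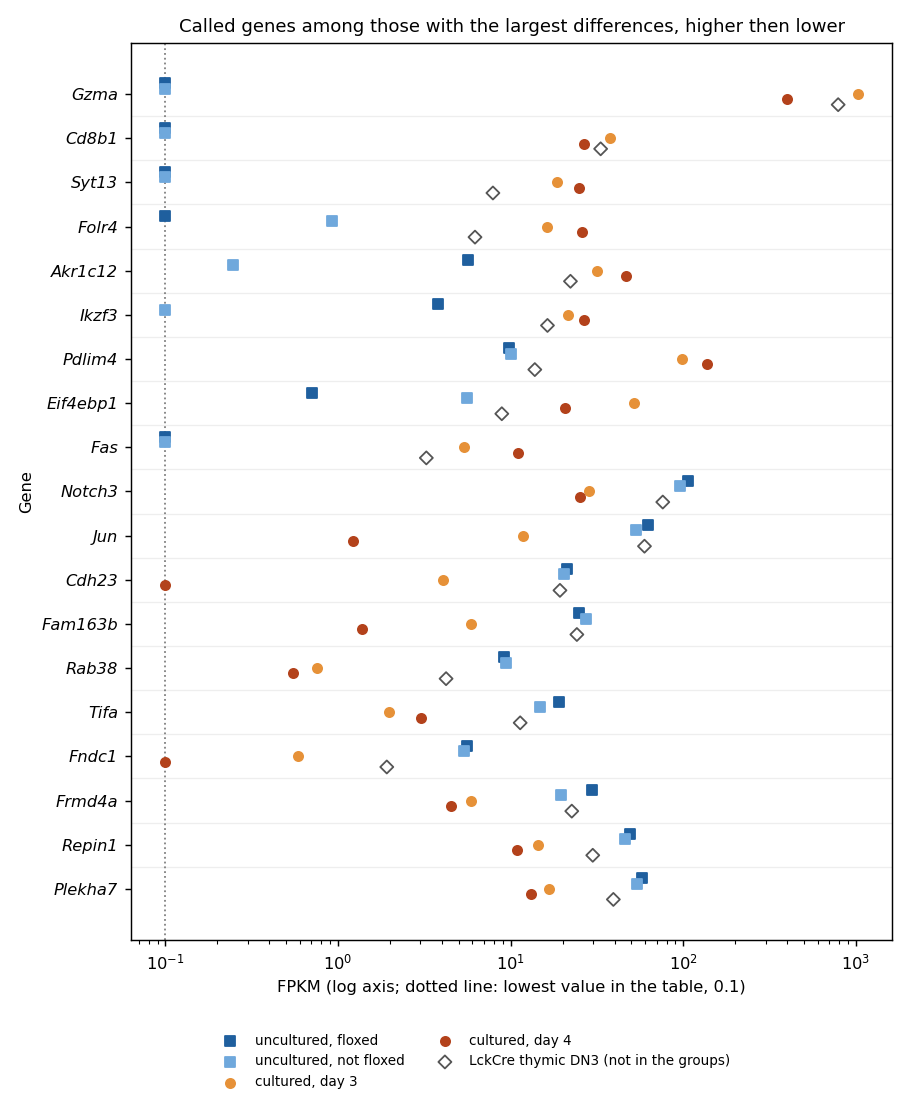
Level (FPKM, log axis) in each thymic DN3 library of 9 called genes with large positive and 10 with large negative differences; squares are uncultured, circles cultured, open diamonds the LckCre library. Gzma, Cd8b1, Syt13 and Fas sit on the dotted line at 0.1 in both uncultured libraries, whereas Pdlim4 and most of the lower genes are measured in all 4.

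Several genes of the double-positive stage were raised from floor values. Of the 10 on the list, 4 rose, among them Cd8b1, Slamf1 and Cd8a, 4 were higher without overlap, against 12.5% of all genes, and 2 were lower without overlap. Cd8b1 and Cd8a, which encode the CD8 chains, were at 37.7 and 26.6 and at 9.38 and 5.24 in the day 3 and day 4 cultures, and both were listed at 0.1 in both uncultured libraries (limma, adjusted p = 0.000403 and 0.00786). Slamf1, a lymphocyte adhesion receptor, was at 6.49 and 14.4 against 0.65 and 0.1 (limma, adjusted p = 0.0146). With 1 culture left out these genes no longer reached the filter in 2 libraries, so none of these 3 could be tested. The other members did not share this order. Ccr9, a chemokine receptor, was at 22.6 and 0.1 against 76.3 and 17.8, Themis, a T-cell signalling adaptor, at 30.0 and 33.6 against 98.2 and 29.4, and Arpp21 at 159 and 169.6 against 319.9 and 209, and none of them was called.

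The LckCre DN3 library, which was never cultured, had Cd8b1 at 33.2, Cd8a at 20.3, Slamf1 at 3.92 and Cd4 at 18.04. It was nearer to the cultured mean than to the uncultured mean for 4 of the 6 double-positive genes without overlap. In the fit with this library added to the uncultured group, none of these 3 was called (limma, adjusted p = 0.289 for Cd8b1, 0.483 for Cd8a and 0.142 for Slamf1). With the spread of all groups, Cd8b1 and Cd8a were not called (limma, adjusted p = 0.133 and 0.317). Over the 47 libraries, Cd8b1 and Cd8a were listed at 0.1 in 7 each. In the 13 cultured fetal liver libraries with Bcl11b, Cd8b1 ran from 0.1 to 98.3 with a median of 40.7. Cd8a ran from 0.1 to 61.9 in them, with a median of 27.1. Low values in the 2 uncultured libraries and a rise in culture cannot be told apart here.

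Floor values entered many of the calls. Of the 55 genes that rose, 20 were listed at 0.1 in both uncultured libraries, 28 in at least 1 of them, and 27 in neither. The LckCre library was above the higher uncultured library for 53 of the 55. It was nearer to the uncultured mean for 5 of the 20 genes at the floor in both, and for 19 of the 27 with no floor value. The 55 were picked for low values in the uncultured libraries relative to the cultures, so that a further library would tend to lie above them. No share over all genes was taken for these counts, and no conclusion is drawn from them. Over all genes, 419 were at the floor in both uncultured libraries, and 29 of these had 5 FPKM or more in the LckCre library. Leaving out every gene with a floor value in any of the 4 libraries, a choice made after seeing the data, gave 102 calls, 62 higher and 40 lower, and all 40 of the 71 calls that could still be tested were called. What put these values at the floor was not tested.

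Gzma, the gene of the protease granzyme A, had the largest difference of the named genes. It was at 1025 and 398 in the day 3 and day 4 cultures and listed at 0.1 in both uncultured libraries (limma, adjusted p = 8.64e-06). The LckCre library had 789, and the 13 cultured fetal liver libraries with Bcl11b (knockout controls and untreated DN2b cells) ran from 717 to 1894 with a median of 1291, so that the floor value set the 2 uncultured libraries apart from the rest. With the LckCre library added to the uncultured group Gzma was not called (adjusted p = 0.297, limma).

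Other genes that rose were measured above the floor in all 4 libraries. Pdlim4, which encodes a PDZ and LIM domain protein of the actin cytoskeleton, was at 98.0 and 137 in the cultures and at 9.75 and 10.1 in the uncultured libraries, with 13.8 in the LckCre library. It rose by 3.42 on the log2 scale (SE 0.32, limma, adjusted p = 0.00177) and remained called without either culture (adjusted p = 0.0262 without day 3 and 0.0399 without day 4). It was not called with no filter on low values (adjusted p = 0.118) or with the spread of all groups (adjusted p = 0.245). Cd2, a T-cell adhesion molecule that binds CD48, was at 69.3 and 105 in the cultures, 10.6 and 10.7 in the uncultured libraries and 17.2 in the LckCre library. It rose by 2.88 (log2, SE 0.33, limma, adjusted p = 0.00522). The Cd2 call held in 8 of 12 alternatives. It was lost with no filter, with the spread of all groups (limma, adjusted p = 0.237) and with either culture left out. Eif4ebp1, an inhibitor of cap-dependent translation, was at 51.6 and 20.6 against 0.7 and 5.55 (limma, adjusted p = 0.0486). Akr1c12, an aldo-keto reductase gene with near-identical neighbours that could share reads, was at 31.8 and 46.6 against 5.64 and 0.25 (limma, adjusted p = 0.037) and is therefore uncertain. The Eif4ebp1 and Akr1c12 calls each held in 5 of 12 alternatives. Both were lost, among others, after quantile normalization (limma, adjusted p = 0.132 for Eif4ebp1 and 0.08 for Akr1c12) and with either culture left out.

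Further called genes had at least 1 uncultured library at the floor. Ikzf3, which encodes the Ikaros-family factor Aiolos, was at 21.3 and 26.7 in the cultures, 3.82 and 0.1 in the uncultured libraries and 16.3 in the LckCre library (limma, adjusted p = 0.0385). Syt13, a synaptotagmin gene, was at 18.5 and 24.7 against 0.1 in both (limma, adjusted p = 0.000677). Folr4, now named Izumo1r, was at 16.2 and 25.9 against 0.1 and 0.93 (limma, adjusted p = 0.00336). Fas, the death receptor, was at 5.40 and 11.1 against 0.1 in both (limma, adjusted p = 0.00792). The LckCre library had 7.89, 6.21 and 3.24 for Syt13, Folr4 and Fas, all below both cultures and above both uncultured libraries. The Ikzf3 call held in 3 of 12 alternatives and was lost with a pseudocount of 0.1 (adjusted p = 0.139), after quantile normalization (0.0729), with robust variances (0.108), with the spread of all groups (0.0621), with no filter (0.392), with the LckCre library added (0.269), without the day 3 culture (0.22) and without the day 4 culture (0.274), all adjusted p from limma, and it was not tested without floor genes. Syt13, Folr4 and Fas were lost with no filter and with the LckCre library added (limma, adjusted p = 0.127, 0.0991 and 0.142 for the latter), and could not be tested without either culture.

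Genes of the pre-TCR response and the T-cell receptor complex gave 1 call each, both higher. Of 17 entries linked to beta-selection, 4 were higher and 4 lower without overlap, and the median difference was -0.04 on the log2 scale. Bcl2l1, which encodes the survival protein Bcl-xL, was at 35.1 and 46.4 in the day 3 and day 4 cultures and at 8.01 and 11.3 in the uncultured libraries. It rose by 1.97 (log2, SE 0.34, limma, adjusted p = 0.0397), and the call held in 5 of 12 alternatives. The call was lost with a pseudocount of 0.1, with no filter and after quantile normalization (limma, adjusted p = 0.0713). Equal column totals, the LckCre library added and either culture left out lost it as well. Id3, an E-protein inhibitor that pre-TCR signals induce, was at 52.2 and 68.3 against 13.7 and 26.7, and Cd24a, a surface glycoprotein, at 383 and 668 against 263 and 243, neither of them called (limma, adjusted p = 0.11 and 0.426). Egr1, an early response gene of the same pathway, was at 5.56 and 2.44 against 9.43 and 7.65, on the opposite side (limma, adjusted p = 0.375).

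Of the 19 receptor and signalling genes, Cd2 was the only call, 3 were higher and 4 lower without overlap, and the median difference was 0.03. Cd3e, a CD3 chain, was at 173 and 140.2 in the cultures and at 260.4 and 323 in the uncultured libraries (limma, adjusted p = 0.398). Zap70, the receptor-associated kinase, was at 56.4 and 74.1 against 13.6 and 35.2 (limma, adjusted p = 0.171). Lck, the co-receptor kinase, overlapped between the groups, at 827 and 572 against 701 and 984.

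Transcription factors of the T lineage showed few differences. Of 22 entries, 3 were higher and 7 lower without overlap, the median difference was -0.28 on the log2 scale, and Ikzf3 was the only call. Tcf7, Gata3 and Lef1, which drive and hold T-lineage identity, overlapped between the groups, with Gata3 at 47.6 and 44.0 against 48.3 and 40.7. Runx1 and Myb were lower without overlap, at 51.1 and 52.0 against 102 and 76.6 and at 121 and 151 against 292 and 181, and neither was called (limma, adjusted p = 0.397 and 0.47). Spib, an Ets-family factor of early T precursors, was at 4.84 and 0.1 against 24.3 and 19.1 (limma, adjusted p = 0.0659).

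The IL-7 list of 17 genes had 4 higher and 8 lower without overlap, with a median of -0.24 and no call. Il7r, the receptor chain, was at 10.4 and 24.2 in the cultures and at 50.2 and 30.4 in the uncultured libraries (limma, adjusted p = 0.282). Il2rb was at 4.04 and 10.4 against 0.85 and 0.96 (limma, adjusted p = 0.0738), and Socs2, a feedback inhibitor of cytokine signalling, at 24.1 and 54.8 against 14.6 and 11.1 (limma, adjusted p = 0.171). Progenitor genes had 3 higher and 5 lower of 17, without a call. Cd34 and Flt3 were above the floor only in the day 3 culture, Cd34 at 14.0 and Flt3 at 2.39 against 0.1 in the other 3 libraries.

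**Figure D3:**
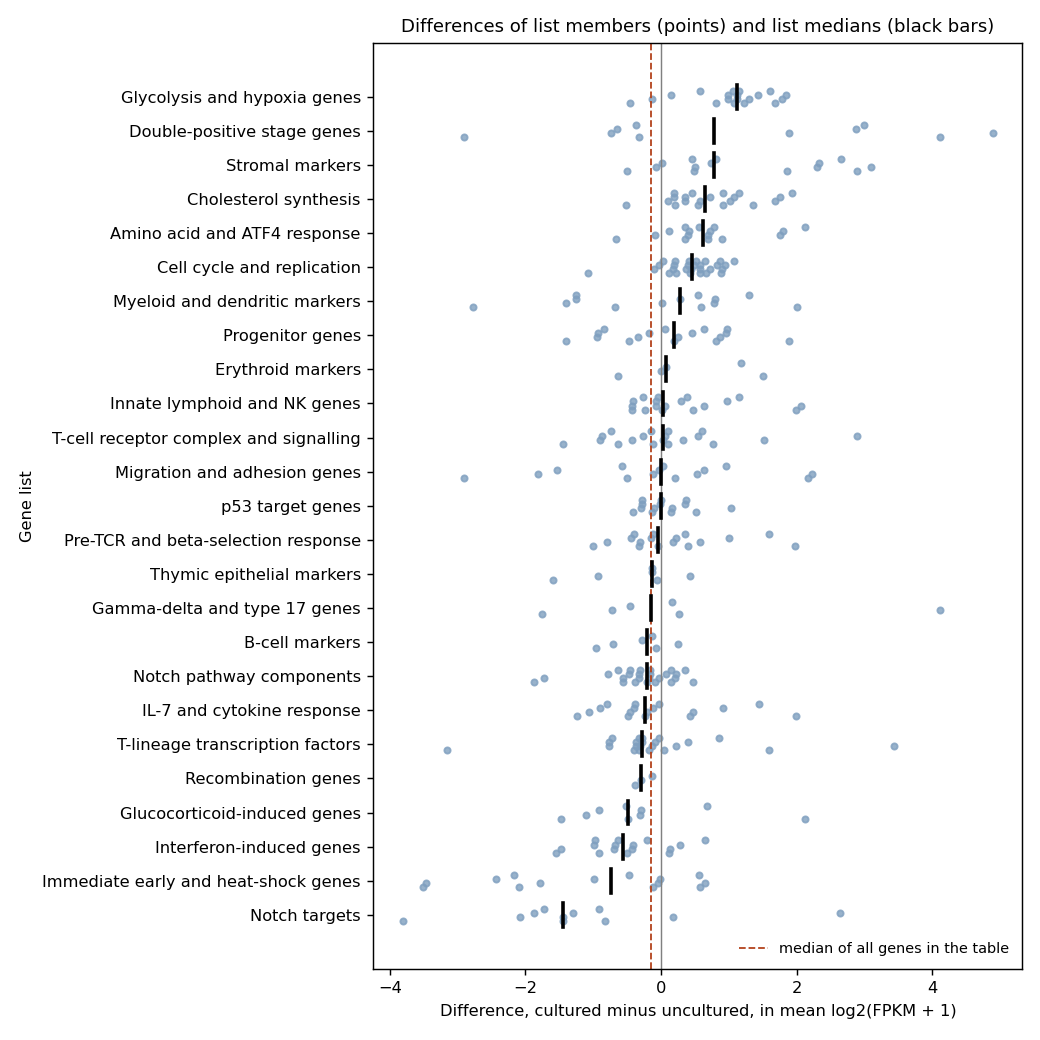
Difference between the cultured and uncultured means of log2(FPKM + 1) for each member of 25 gene lists (points) with the list median (black bar); the dashed line is the median of all 17754 genes, -0.14. Glycolysis stands highest with a median of 1.12 and the Notch targets lowest with -1.45.

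Glycolysis genes were higher in culture as a group without any of them being called. Of 19 genes, 15 were above both uncultured libraries in both cultures, against 12.5% of all genes, and none was below. The median difference was 1.12 on the log2 scale, and 1.09 after quantile normalization. The summed level of the 19 was 4787 FPKM in the day 3 culture and 8876 in the day 4 culture, against 2281 in the floxed and 3280 in the unfloxed library, and 18 of the 19 were higher at day 4 than at day 3. Day and culture date went together, so that they cannot be told apart. Pkm2, a pyruvate kinase gene, was at 939.8 and 1688 in the cultures and at 401 and 546 in the uncultured libraries (log2 difference 1.43, SE 0.56, limma, adjusted p = 0.353). Aldoa, an aldolase gene, was at 458 and 995 against 169.5 and 223 (limma, adjusted p = 0.163), and Slc2a1, the glucose transporter GLUT1, at 25.6 and 48.7 against 12.0 and 8.88 (limma, adjusted p = 0.0968). Bnip3, a hypoxia-induced mitochondrial gene, was at 11.6 in the day 3 culture and 57.6 in the day 4 culture, against 9.77 and 10.4, so that the day 3 value was close to the uncultured ones.

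With the spread taken from all groups of the series, where 411 genes (3.18%) were called, 126 of them higher (0.976%) and 285 lower (2.21%), 4 of the 19 glycolysis genes rose. The LckCre library was nearer to the uncultured mean for 14 of the 15 genes without overlap. The exception was Hk2, the hexokinase gene, at 14.9 in that library and at 14.9 and 7.32 in the cultures, against 3.04 and 2.51.

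The promoters of the glycolysis genes were searched in the same RefSeq windows for ACGTG, the core shared by hypoxia response elements, on both strands. Of 17 genes with a window, 12 held it in at least 1 window, against 21.8% of all genes with a window. These 17 genes had 25 windows, and a gene with more windows is more likely to hold the core. Counted by window, 13 of the 25 held it, against 19.6% of all 32851 windows. This core is contained in the E-box CACGTG, and each CACGTG counts once per strand. A window of Ldha, which encodes lactate dehydrogenase A (chr7:46845554-46845853, plus strand), held 5 matches and is shown with them in capitals. Another Ldha window (chr7:46846832-46847131, plus strand) held 0.
Ldha: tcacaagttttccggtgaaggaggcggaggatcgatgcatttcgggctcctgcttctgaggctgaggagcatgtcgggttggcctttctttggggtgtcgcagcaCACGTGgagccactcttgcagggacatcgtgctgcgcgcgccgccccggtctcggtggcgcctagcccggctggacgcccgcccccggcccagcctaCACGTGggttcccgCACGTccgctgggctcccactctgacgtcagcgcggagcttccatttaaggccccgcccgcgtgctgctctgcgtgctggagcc
Ldha was at 869 and 1372.5 in the cultures and at 418 and 576 in the uncultured libraries (log2 difference 1.15, SE 0.54, limma, adjusted p = 0.445). The list holds genes known to respond to hypoxia, so that the list and the motif are not independent.

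**Figure D4:**
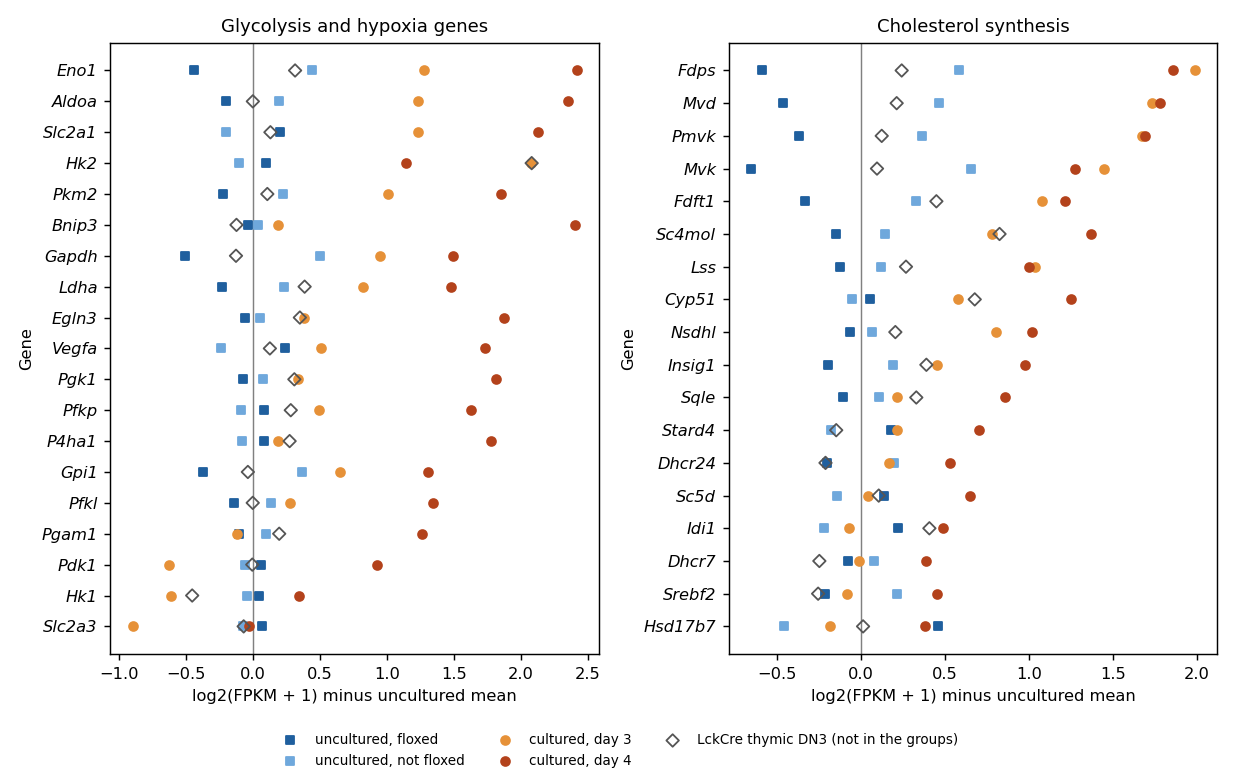
Each library's log2(FPKM + 1) minus the mean of the 2 uncultured libraries, for 19 glycolysis and hypoxia genes and 18 of the 20 cholesterol synthesis genes; squares are uncultured, circles cultured, open diamonds the LckCre library. The day 4 culture is right of the day 3 culture for 18 of the 19 glycolysis genes, and the cholesterol synthesis genes Fdps, Mvd and Pmvk are about equally high in both cultures.

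Cholesterol synthesis genes also stood higher. Of 20 genes, 13 were above both uncultured libraries in both cultures and 1 was below, with a median of 0.65 on the log2 scale. After quantile normalization 17 were above, against 17.7% of all genes. Fdps, the farnesyl diphosphate synthase gene, was at 377 and 344 in the day 3 and day 4 cultures and at 62.4 and 142 in the floxed and unfloxed libraries (log2 difference 1.92, SE 0.44, limma, adjusted p = 0.102). Mvd and Pmvk, which encode enzymes of the mevalonate pathway, were at 52.4 and 54.1 against 10.7 and 21.1 and at 37.1 and 37.7 against 8.29 and 14.4 (limma, adjusted p = 0.071 for each). For these 3 genes the cultures nearly coincided and the floxed library was the lowest. Srebf2, which encodes a transcription factor that controls the pathway, overlapped between the groups, at 77.4 and 113 against 70.7 and 95.5. No gene of the list was called with the 4 libraries alone, and 7 rose when the spread of all groups was used, against 0.976% of all genes tested.

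Of 16 amino acid and ATF4 response genes, 11 were higher and none lower without overlap, with a median of 0.62 and no call. Ddit4, an inhibitor of mTORC1 signalling, was at 37.0 and 53.9 in the cultures and at 5.14 and 16.98 in the uncultured libraries (limma, adjusted p = 0.0936). Shmt2, a mitochondrial enzyme of serine metabolism, was at 191 and 136 against 76.8 and 130.01, and Phgdh, the first enzyme of serine synthesis, at 388 and 308 against 276 and 371, where the groups overlapped.

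Cell cycle genes were higher without overlap for 17 of 28 and lower for 1, with a median of 0.46 and no call. Ccnb1, Aurka and Cdc20, which act in mitosis, were at 89.6 and 138 against 56.8 and 68.4, at 43.1 and 54.0 against 22.1 and 29.5, and at 135 and 128 against 47.4 and 81.4. Mki67, the proliferation marker, overlapped, at 65.1 and 94.6 against 114 and 51.9, and the replication helicase gene Mcm7 was at 278 and 269.5 against 207 and 269. Ccnd2, a cyclin of the G1 phase, was the member below, at 24.8 and 21.9 against 64.8 and 38.7 (limma, adjusted p = 0.247). The LckCre library was nearer to the uncultured mean for 9 of the 18 genes without overlap.

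Some immediate early genes were lower in culture. Of 14 immediate early and heat-shock genes, 8 were lower without overlap, against 30.8% of all genes, and 1 was higher, with a median of -0.73 on the log2 scale. After quantile normalization 7 were lower (23.1% of all genes) and 3 higher (17.7% of all genes), with a median of -0.49. The heat-shock genes Hspa1a and Hspa1b were among the 8, as was Ier3, at 3.01 and 2.94 against 3.02 and 3.05. Jund, Ier2, Btg2, Klf6 and Dnajb1 overlapped, and Zfp36 was the gene above. Jun, a subunit of the AP-1 transcription factor, was at 11.7 in the day 3 culture and 1.21 in the day 4 culture, against 62.5 and 52.9 in the uncultured libraries and 59.5 in the LckCre library. It fell by 3.46 on the log2 scale (SE 0.64, limma, adjusted p = 0.0489), and the call held in 5 of 12 alternatives, among them without the day 3 culture (adjusted p = 0.0149). It was lost after quantile normalization (0.184), with a pseudocount of 0.1 (0.108), without the filter (0.399), with the spread of all groups (0.17), with robust variances (0.379), with the LckCre library added (0.0778) and without the day 4 culture (0.162), all adjusted p from limma. Fos, its partner, was at 10.1 and 0.1 against 37.7 and 40.4 (limma, adjusted p = 0.101), and Junb at 27.3 and 5.73 against 52.2 and 71.5 (limma, adjusted p = 0.127). The day 4 culture was the lowest library for all 3.

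Of the 16 genes that fell, 13 were above the floor in both cultures. Rab38, a small GTPase of vesicle traffic, was at 0.76 and 0.55 in the cultures, 9.18 and 9.42 in the uncultured libraries and 4.22 in the LckCre library (log2 difference -2.64, SE 0.34, limma, adjusted p = 0.00792). Tifa, an adaptor of TRAF6 signalling, was at 1.97 and 3.02 against 19.0 and 14.7 (limma, adjusted p = 0.0219). Plekha7, a junction-associated protein, was at 16.6 and 13.2 against 57.5 and 53.6, and Repin1, a zinc-finger protein, at 14.3 and 10.9 against 48.8 and 46.2 (limma, adjusted p = 0.0385 and 0.0397). Cdh23, a cadherin gene, was at 4.04 and 0.1 against 21.2 and 20.4, and Fndc1 at 0.59 and 0.1 against 5.54 and 5.37 (limma, adjusted p = 0.0486 and 0.0181). Fam163b was at 5.85 and 1.38 against 24.8 and 27.1, and Frmd4a at 5.88 and 4.51 against 29.5 and 19.5 (limma, adjusted p = 0.0399 and 0.046). For all 16 genes that fell the 2 groups did not overlap, and the LckCre library was nearer to the uncultured mean for 12 of them. The 16 were picked on these same uncultured libraries, and no share over all genes was taken for that count. After quantile normalization Rab38 was the only one of the 8 named above still called (limma, adjusted p = 0.0233). Among the genes named here, only Jun, Cdh23 and Fam163b were called without the day 3 culture and none was called without the day 4 culture.

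Interferon-induced genes were lower without overlap for 10 of 16 and higher for none, with a median of -0.57 and no call. After quantile normalization 6 were lower, against 23.1% of all genes. Gbp6, an interferon-induced GTPase, was at 17.7 and 23.7 against 71.5 and 48.3 (limma, adjusted p = 0.102), while Bst2, the antiviral protein tetherin, overlapped. Glucocorticoid-induced genes were lower without overlap for 4 of 9 and higher for 2, with a median of -0.49 and no call. Zfp36l2, an RNA-decay factor, was at 69.1 and 66.0 against 192 and 188 (limma, adjusted p = 0.0914), and Fkbp5, a chaperone of the glucocorticoid receptor, at 251 and 259 against 552 and 422. Among 14 migration genes, Ccr4, a chemokine receptor, rose, at 3.32 and 5.17 against 0.1 in both uncultured libraries (limma, adjusted p = 0.0181), 4 were higher and 3 lower without overlap. Itga4, an integrin chain, was at 22.7 and 42.7 against 147 and 85.9 (limma, adjusted p = 0.0894). The 14 targets of p53, the transcription factor that DNA damage activates, had 2 higher and 2 lower without overlap, a median of -0.01 and no call. Cdkn1a, the cell cycle inhibitor p21, was among the lower, at 26.2 and 22.7 against 33.4 and 32.0.

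**Figure D5:**
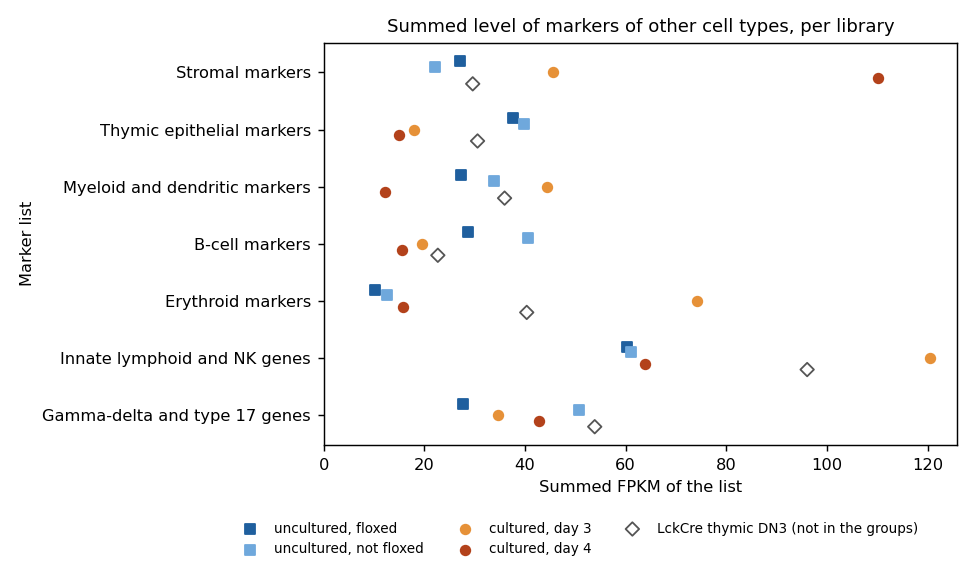
Summed FPKM of 7 marker lists of other cell types in each library; squares are uncultured, circles cultured, open diamonds the LckCre library. Stromal markers sum to 45.6 and 110.2 in the cultures and to 27.1 and 22.1 in the uncultured libraries, while thymic epithelial and B-cell markers are lower in both cultures. The thymic epithelial sums differ mainly through Epcam.

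Markers of stromal cells moved with culture. Of 14 stromal markers, 10 were higher and 1 lower without overlap, with a median of 0.78, and 4 rose: Bgn, Sparc, Col1a1 and Col1a2, which encode extracellular matrix proteins. Bgn was at 5.84 and 8.65 in the day 3 and day 4 cultures and listed at 0.1 in both uncultured libraries (limma, adjusted p = 0.0055). Col1a2 was at 3.66 and 10.1 against 0.51 and 0.36 (limma, adjusted p = 0.0486). With the spread of all groups Sparc alone of the 4 was called (limma, adjusted p = 0.0167, against 0.0723 for Bgn, 0.136 for Col1a1 and 0.147 for Col1a2). None of the 4 was called with the LckCre library added (adjusted p from 0.0797 to 0.145, limma), and none could be tested with either culture left out. Cxcl12, a chemokine that stromal cells make, was at 8.43 and 43.9 against 1.43 and 1.38 (limma, adjusted p = 0.0591). The summed level was 45.6 and 110.2 in the cultures, 27.1 and 22.1 in the uncultured libraries and 29.6 in the LckCre library. Pdgfrb, the marker that was lower in culture, gave 21.4 and 16.7 of the uncultured sums and was at 11.2 and 15.3 in the cultures. Cxcl12 gave 43.9 of the day 4 sum. Dcn and Postn, other matrix genes of fibroblasts, stayed at or under 0.27 in all 4. The part of stromal RNA in the results above was not tested, nor was that of the other cell types that follow.

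Thymic epithelial markers summed to 17.9 and 14.9 in the cultures against 37.6 and 39.8, with 1 of 6 entries higher and 2 lower without overlap. The sums differed mainly through Epcam, at 10.4 and 8.40 against 28.4 and 32.2. Krt8 ran from 0.11 to 0.35 and Psmb11 from 0.24 to 0.57 in all 4. The 13 cultured fetal liver libraries with Bcl11b, which did not come from the thymus, summed from 15.2 to 33.8. Epcam ran from 9.08 to 28.5 in them, with a median of 17.4. B-cell markers summed to 19.6 and 15.6 against 28.7 and 40.6, with 1 of 6 higher and 4 lower without overlap. Myeloid and dendritic markers summed to 44.4 in the day 3 culture and 12.2 in the day 4 culture, against 27.3 and 33.8, with 2 of 13 higher and 4 lower without overlap. Mpo, a granule enzyme of myeloid cells, was at 16.8 in the day 3 culture and at 0.1 in the other 3, and Lyz2, lysozyme, was at 3.40 and 0.1 against 13.0 and 15.2. Erythroid markers summed to 74.2 in the day 3 culture and 15.8 in the day 4 culture against 10.2 and 12.6, with 68.2 of the first from Hbb-b2. Of the 5 entries, 1 (Gata1) was higher and 1 (Alas2) lower without overlap. The globin gene Hba-a1 was at 0.1 in all 4, and Hbb-b1 was at 0.22 in the day 3 culture and 0.1 in the other 3. Innate lymphoid and natural killer genes summed to 120.4 and 63.9 against 60.2 and 61.1, with Ncr1 and Eomes at or under 0.22 in all 4 and Gzmb at 18.2 in the day 3 culture and 0.1 in the other 3. The gamma-delta and type 17 list had 2 higher and 2 lower of 6, with 1 call. Nothing was called on the epithelial, B-cell, myeloid, erythroid and innate lists. The day 3 culture was the highest library for the myeloid, erythroid and innate sums, and the day 4 culture for the stromal sum.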

How the data were processed

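Poly(A)-selected RNA was sequenced from sorted mouse T-cell precursors. The authors deposited 1 table of FPKM values, merged and adjusted with ComBat per its name, and the reads were aligned to mm9 per the submitters' processing notes. No source used here names the quantification tool or the ComBat batches, and the adjustment could have moved differences either way. Of its per-sample columns, 47 matched samples through the description and 16 matched none and were not used. No strand-marking step is listed, so antisense overlap cannot be resolved.

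Differences were fitted on log2(FPKM + 1) with limma 3.58.1 in R 4.3.3 (mean-variance trend, Benjamini-Hochberg), for genes with at least 1 FPKM in at least 2 of the 4 libraries; the script was tested on simulated data. The pseudocount understates changes of low genes. Values at 0.1 FPKM are read as listed at the floor, with no fold. Genes counted as without overlap use all list members, tested or not. Named were 15 fixed genes, the 10 called genes with the largest difference each way with 5 FPKM or more on average in a group, leaving out predicted genes, pseudogenes and receptor segments, and for each list up to 4 called members or its 2 most abundant; other names were chosen after their values were seen, and a few genes that this rule or a list would name are not reported here. The libraries, lists and tests were chosen with earlier results of these data known. Alternatives were another pseudocount, no filter, 2 normalizations, robust variances, the spread of all groups, the LckCre library added, each library left out, and the day 4 culture against the unfloxed library alone.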

Additional observations from a re-analysis of the deposited data

How the results depend on the processing

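Against 71 calls (55 higher, 16 lower), a pseudocount of 0.1 gave 43 (39 higher, 4 lower), no filter on low values 1 (1 higher, 0 lower, with 1730 genes at an unadjusted p under 0.05), quantile normalization 31 (30 and 1), equal column totals 83 (44 and 39), robust variances 139 (92 and 47), the spread of all groups 411 (126 and 285), the LckCre library added 11 (9 and 2), and, chosen after seeing the data, floor genes left out 102 (62 and 40). Leaving out 1 library gave 19 to 937 calls (4 to 416 higher, 14 to 521 lower). None of the 71 reversed under any of the 12 alternatives where it was tested. With cultured libraries left out, 4 (no day 3) and 3 (no day 4) of 37 testable calls remained, and with either uncultured library left out 68 of 68. The cause of these shifts was not tested.

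Log2 differences that changed sign, in genes that were not called, were those of Mki67 (quantile -0.004313, equal totals -0.2299, LckCre added -0.1421), Mcm7 (equal totals -0.04989), Ccl25 (quantile 0.1968), Srebf2 (equal totals -0.07456) and Phgdh (quantile -0.08436, equal totals -0.154). With each library left out in turn, differences ranged from -0.745 to 0.1655 for Rag1, -0.5267 to 0.5888 for Mki67, -0.1157 to 2.07 for Tyrobp, -0.2004 to 0.06989 for Ccl25, -0.0656 to 3.067 for Hbb-b2, -0.8106 to 0.5434 for Trp53inp1, -0.08453 to 0.4562 for Srebf2 and -0.103 to 0.3214 for Phgdh. No paired analysis was possible because the labels carry no replicate numbers and only the day 4 culture and the unfloxed library share line and month. Their single difference, which has no test, moved by more than the spread between replicates for 45 results and by less for 24. It was -0.76 for Il2ra, 1.72 for Eif4ebp1, -0.32 for Il7r and 0.28 for Rag1, against -1.45, 3.34, -1.24 and -0.29 with all 4 libraries, and -1.89 for Notch3. Besides Rag1, its sign differed for Tyrobp (-0.13), Hbb-b2 (-0.09), Bax (-0.02), Trp53inp1 (0.91), Phgdh (-0.27) and Bst2 (-0.21), none of them called. Sequencing depth is unknown, so the precision of low values cannot be stated.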

Other observations

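Some called genes outside the lists are given here as single genes, chosen after their values were seen, with no count or test of the families they belong to. The tubulin genes Tuba1a, Tubb2b and Tubb3 rose, Tuba1a at 146 and 126 in the day 3 and day 4 cultures against 17.3 and 32.1 in the floxed and unfloxed libraries, Tubb2b at 62.2 and 51.9 against 9.48 and 10.7, and Tubb3 at 65.7 and 95.0 against 13.5 and 18.4 (limma, adjusted p = 0.0181, 0.0102 and 0.0187). The LckCre library had 28.6, 22.0 and 19.3, on the uncultured side for each. Near-identical tubulin copies could share reads, so that the split between them is uncertain.

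The collagen genes Col6a1 and Col6a2 rose, Col6a1 at 5.94 and 9.28 and Col6a2 at 5.01 and 8.48, both listed at 0.1 in both uncultured libraries, and Serpinh1, a collagen chaperone, at 2.80 and 4.78 against 0.19 and 0.16, rose as well (limma, adjusted p = 0.0055, 0.00792 and 0.037). Ctla4, an inhibitory receptor, was at 116 and 154 against 40.1 and 18.1, and Itgb2, the beta chain of LFA-1, at 29.6 and 53.1 against 7.45 and 8.04 (limma, adjusted p = 0.046 and 0.0337). Scd1, a fatty acid desaturase gene, was at 16.8 and 34.3 against 4.26 and 4.43, and Bcat1, a transaminase of branched-chain amino acids, at 9.23 and 10.1 against 0.39 and 0.65 (limma, adjusted p = 0.046 and 0.00633), with 16.0 for Bcat1 in the LckCre library.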
